A study of Homo sapiens with 11 samples.

Results

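C2 is 1 of 4 clones of the human colorectal carcinoma line HCT116 that stably overexpress gelsolin, a protein that severs and caps actin filaments. It is described here by its 2 arrays, set against the 6 arrays of the other gelsolin-overexpressing clones C1, C3 and C8 out of 11 arrays in all. Genes were counted as apart where C2 lay above, or below, each of C1, C3 and C8 on the same beadchip in both harvests. Of 10363 genes tested, 1677 were apart in this way, and 54 differed between C2 and the mean of the other clones by limma at an adjusted p under 0.05.

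The clones C2, C1, C3 and C8 carry a pIRES2-EGFP plasmid with a human cytoplasmic gelsolin coding sequence, and the vector clones V4 and V5 carry the same plasmid without it. All were selected and grown in Geneticin, so the drug, the EGFP plasmid and the parental line were shared by every array. RNA of 2 harvests of each gelsolin-overexpressing clone and of V4, and 1 array of V5, was hybridized to Illumina HumanRef-8 beadchips. The first harvests of the gelsolin-overexpressing clones lay on one beadchip (beadchip 1) and the second harvests on another (beadchip 2), so harvest and beadchip cannot be told apart. Each line is a separate stable transfectant, and the p-values rest on the spread between harvests of these lines. They therefore concern C2 as a line, and an effect of gelsolin cannot be told apart in them from any other property in which 1 clone differs from 3. The array medians were 88.1 and 90.9 in C2 and 80.1 to 105 in the other clones. Signals were divided by the array median and brought to a common median of 88.35, without background subtraction, so that differences of dim genes are understated. All signals below are on this scale and all differences are log2, C2 minus the mean of C1, C3 and C8, unless stated.

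As background, stable transfectants picked from 1 parental line can differ in where the plasmid entered the genome, in transgene level and in what the founding cell already expressed. HCT116 cells are of epithelial origin. Connective tissue growth factor, vimentin and SPARC are genes through which the adhesive and matrix-producing state of such cells is commonly read, and the first is a classical target of the YAP and TEAD regulators, which respond to actin tension. DUSP6 is a phosphatase that inactivates ERK and is itself induced by ERK signaling, NR2F1 is an orphan nuclear receptor (COUP-TF1), and ENO2 is the neuronal isoform of the glycolytic enzyme enolase.

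Connective tissue growth factor, CCN2, stood farthest from the other clones among the genes lower in C2. Its normalized signal was 254 and 476 in harvests 1 and 2 of C2, against 918 and 1275 in C1, 765 and 1497 in C3, and 957 and 1181 in C8. Both C2 arrays lay below all 6 arrays of the other clones, by at least 1.31 on the log2 scale within a beadchip. The vector clones gave 242 and 235 (V4) and 307 (V5), so that the C2 arrays were nearer to the vector arrays than to those of the other clones. The difference was -1.62 (standard error, SE, 0.15, adjusted p = 0.00591, limma), and -1.79 and -1.46 within beadchips 1 and 2.

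The regions upstream of the start sites of CCN2 and SPARC, and of F3 and CXCL8, are printed because all 4 genes were lower in C2 and these regions, picked after the search, hold matches to the motifs searched. The sequences are the 250 bases before the RefSeq start (GRCh38.p14), 5′ to 3′ on the strand of the gene, with matches to GGAATG or its reverse complement CATTCC (the core of TEAD sites) in capitals in the first pair and matches to TGANTCA (the AP-1 site, its own reverse complement) in capitals in the second pair. They lie at chr6:131951373-131951622 (CCN2), chr5:151686916-151687165 (SPARC) and chr1:94541760-94542009 (F3), all on the minus strand, and at chr4:73740319-73740568 (CXCL8) on the plus strand.
CCN2: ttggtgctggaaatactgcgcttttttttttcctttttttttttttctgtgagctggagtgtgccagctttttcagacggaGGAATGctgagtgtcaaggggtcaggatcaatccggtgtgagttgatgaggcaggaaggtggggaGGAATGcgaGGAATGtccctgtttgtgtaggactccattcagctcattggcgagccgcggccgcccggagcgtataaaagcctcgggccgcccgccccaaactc
SPARC: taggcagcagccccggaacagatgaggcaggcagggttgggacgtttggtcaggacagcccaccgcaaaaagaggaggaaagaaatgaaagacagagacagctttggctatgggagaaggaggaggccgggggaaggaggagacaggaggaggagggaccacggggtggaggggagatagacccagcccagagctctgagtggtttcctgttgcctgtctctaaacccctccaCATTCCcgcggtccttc
F3: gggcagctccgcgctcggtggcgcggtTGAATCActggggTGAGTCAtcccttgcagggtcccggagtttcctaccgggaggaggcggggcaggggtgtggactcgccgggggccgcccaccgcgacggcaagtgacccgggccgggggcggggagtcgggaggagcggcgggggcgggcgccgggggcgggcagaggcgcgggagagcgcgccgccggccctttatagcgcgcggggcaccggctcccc
CXCL8: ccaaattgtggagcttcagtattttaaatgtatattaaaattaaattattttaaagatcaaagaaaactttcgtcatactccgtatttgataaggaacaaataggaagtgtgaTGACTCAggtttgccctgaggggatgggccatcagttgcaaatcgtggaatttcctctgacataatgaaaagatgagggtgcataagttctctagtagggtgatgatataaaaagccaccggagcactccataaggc

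CCN2 held 3 matches to GGAATG and SPARC 1, and F3 held 2 matches to TGANTCA and CXCL8 1. Those of VIM and DUSP6, and of NR2F1 at the first of its listed starts, held neither motif, and that of ENO2 held 1 match to TGANTCA. Over all 35116 promoters, 11.9% held GGAATG and 6.57% held TGANTCA, and in 25 of them matches of both motifs shared bases. A promoter was found for 42 of the 52 called genes with a symbol. Counting a gene where any of its listed starts had a match, GGAATG was in 5 of 21 such genes lower in C2 and in 5 of 21 higher in C2, beside 13.01% of 7865 tested genes, and TGANTCA was in 4 of the 21 lower and 3 of the 21 higher genes, beside 6.13%. The matches are a description of these letters only.

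Genes of the mesenchymal state were represented by vimentin, VIM, and SPARC, a secreted collagen-binding protein. VIM, the intermediate filament of mesenchymal cells, had signals of 62.5 and 85.7 in C2, against 119 and 255 in C1, 217 and 311 in C3, and 121 and 259.9 in C8, a difference of -1.45 (SE 0.16, adjusted p = 0.00645, limma). SPARC had 48.9 and 56.8 in C2, against 88.4 and 89.6 in C1, 126 and 112 in C3, and 89.3 and 97.3 in C8, a difference of -0.92 (SE 0.10, adjusted p = 0.00675). In both genes the C2 arrays did not overlap with any array of the other clones. The vector arrays differed between the pair. For VIM they gave 90.6 and 106 (V4) and 259 (V5), above both C2 arrays. For SPARC they gave 58.8 and 48.2 (V4) and 61.7 (V5), within reach of C2. The C2 signals of both genes lay below the common median, where background narrows the fold.

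Called genes were about as often higher as lower in C2. Of the 10363 genes, 0.521% were called, 25 higher (0.241%) and 29 lower (0.280%) in C2, and 10 of the higher and 15 of the lower differed by at least 2-fold. Without adjustment 1052 genes (10.1%) had a p under 0.05, 665 of them higher. Apart on both beadchips were 16.2% of all genes, 1143 above (11.03%) and 534 below (5.15%), with a median gap to the nearest other clone of 0.06. Most genes that were apart were thus apart by little, and 16 above and 17 below had a gap of at least 0.5. Of the 54 called genes 52 were apart in the direction of the call, and the exceptions were the Wnt antagonist DACT1, which lay above C1 on beadchip 1, and IGF2BP3, an RNA-binding protein, which lay below C3 there. The last gene inside the threshold was SNTB1 (adjusted p = 0.0494) and the first outside it SERPINA1 (adjusted p = 0.0547). Tested against each of C1, C3 and C8 at once, with the largest of the 3 p-values, 0 genes passed the adjusted threshold by limma, and 176 had an unadjusted p under 0.05 (81 higher, 95 lower). CCN2 came closest, with an adjusted p of 0.0599.

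**Figure D1:**
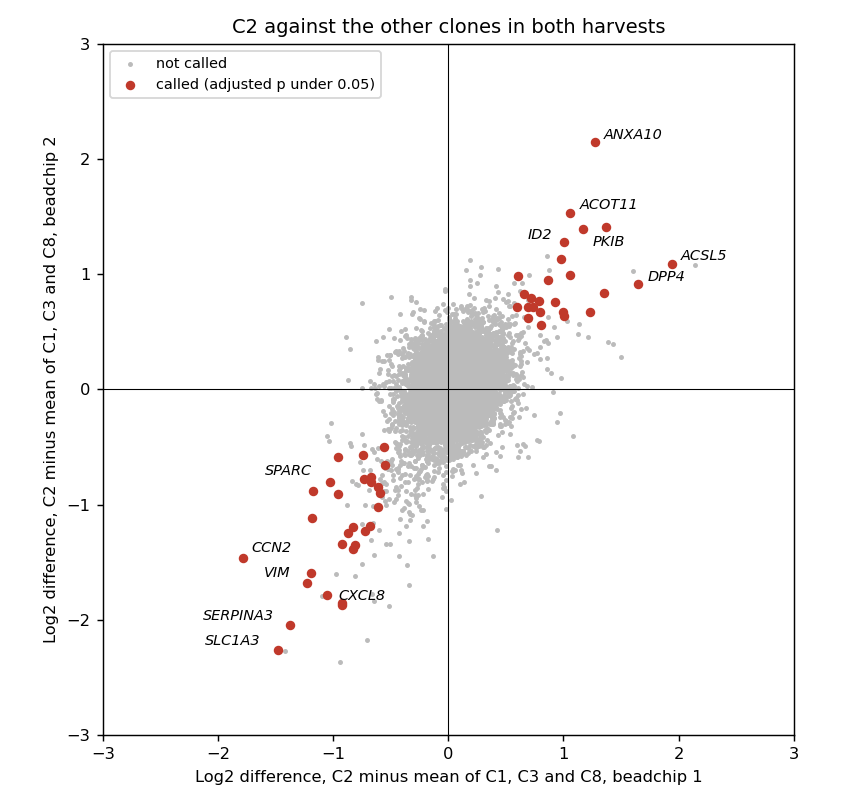
Each point is 1 of 10363 genes, with its log2 difference between C2 and the mean of C1, C3 and C8 on beadchip 1 (horizontal axis) and beadchip 2 (vertical axis). The 54 called genes (red) lie in the lower left and upper right quadrants, with CCN2 at -1.79 and -1.46 and ANXA10 at 1.27 and 2.15.

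The count of calls depended on single arrays. It was 42 without the first and 10 without the second harvest of C2, 8 and 1 without the first and second harvest of C1, 33 and 20 without those of C3, and 284 and 124 without those of C8. All 54 genes kept their direction in each of these 8 refits, in which CCN2 and SERPINA3 lost their call only without the second harvest of C1 (adjusted p = 0.0565 for both), and the probe ILMN_1784678, which has no gene symbol, was the only gene called in all 8. With the mean of each clone as 1 sample, so that the spread is between clones, 15 of the 54 genes were still called. Lower in C2 these were CCN2 (adjusted p = 0.000959, limma), VIM, SPARC, F3, PLK2, PRICKLE1, TIAM1 and TNFSF4. Higher in C2 were ACOT11, ABCC2, the probe ILMN_1784678, and DPP4, LONRF2, ITGA9 and TBX3, which entered the test through C2 alone. All other called genes lost their call, PKIB (adjusted p = 0.136), ID2 (adjusted p = 0.114), PALLD (adjusted p = 0.2) and LIMA1 (adjusted p = 0.108) among them. For SERPINA3, SLC1A3, CXCL8, ANXA10 and ACSL5 the adjusted p was 1 each. The probe ILMN_1784678 had 269.9 and 311 in C2, against 94.7 to 145 in the other clones and 74.3 to 85.2 in the vector clones. Its difference in the main fit was 1.39 (SE 0.15, adjusted p = 0.00641, limma). Across genes, which are not independent replicates, the differences on both beadchips had a Pearson r of 0.360.

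The same fit with another clone in the place of C2 gave 10 calls for C1 (9 higher, 1 lower), 0 for C3 and 13 for C8 (6 higher, 7 lower) by limma. At an unadjusted p under 0.05 there were 1025 genes for C1, 1156 for C3 and 1920 for C8. Apart on both beadchips were 15.4% of genes for C1, 16.6% for C3 and 25.4% for C8, so the share apart in C2 was within the range of the other clones while its calls were more numerous. These fits share their arrays, and the difference between the counts was not tested. The r between beadchips was 0.291 for C1, 0.408 for C3 and 0.135 for C8.

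The lower group included secreted proteins and surface ligands. Tissue factor, F3, which starts blood coagulation, had 240.0 and 309.9 in C2, against 439 and 928 in C1, 533 and 1222 in C3, and 703 and 722 in C8, a difference of -1.39 (SE 0.22, adjusted p = 0.0375, limma). SERPINA3, the acute phase protease inhibitor antichymotrypsin, whose call was lost with clone means, had 105 and 124 in C2, against 442 and 1052 in C1, 153 and 276 in C3, and 299.9 and 466 in C8, a difference of -1.71 (SE 0.18, adjusted p = 0.00641). The other clones differed widely here, with C1 highest in its second harvest, but none came as low as C2 on either beadchip. SERPINA5, the inhibitor of activated protein C and urokinase, had 449 and 418 in C2, against a narrow 641 to 874 (median 718) in the other clones, a difference of -0.75 (SE 0.13, adjusted p = 0.0437). Its vector arrays gave 164, 208 and 97.4, so that C2 lay between the vector clones and the other gelsolin-overexpressing clones. PDGFC, a platelet-derived growth factor, had 183 and 147 in C2, against 258 to 395 (median 308), a difference of -0.93 (SE 0.16, adjusted p = 0.0434). TNFSF4, the OX40 ligand, had 83.5 and 64.0 in C2, against 103 to 158 (median 121), a difference of -0.74 (SE 0.13, adjusted p = 0.0468), and TNFSF18, the GITR ligand, which was named after its values were seen, gave -1.15 (adjusted p = 0.0259). Interleukin 8, CXCL8, had 111 and 164 in C2, against 497 and 1457 in C1, 146 and 228 in C3, and 166 and 544 in C8, a difference of -1.42 (SE 0.23, adjusted p = 0.0468). Here the ranges of C2 and the other clones overlapped between beadchips, since the first harvest of C3 was below the second of C2, and the call was lost with clone means.

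**Figure D2:**
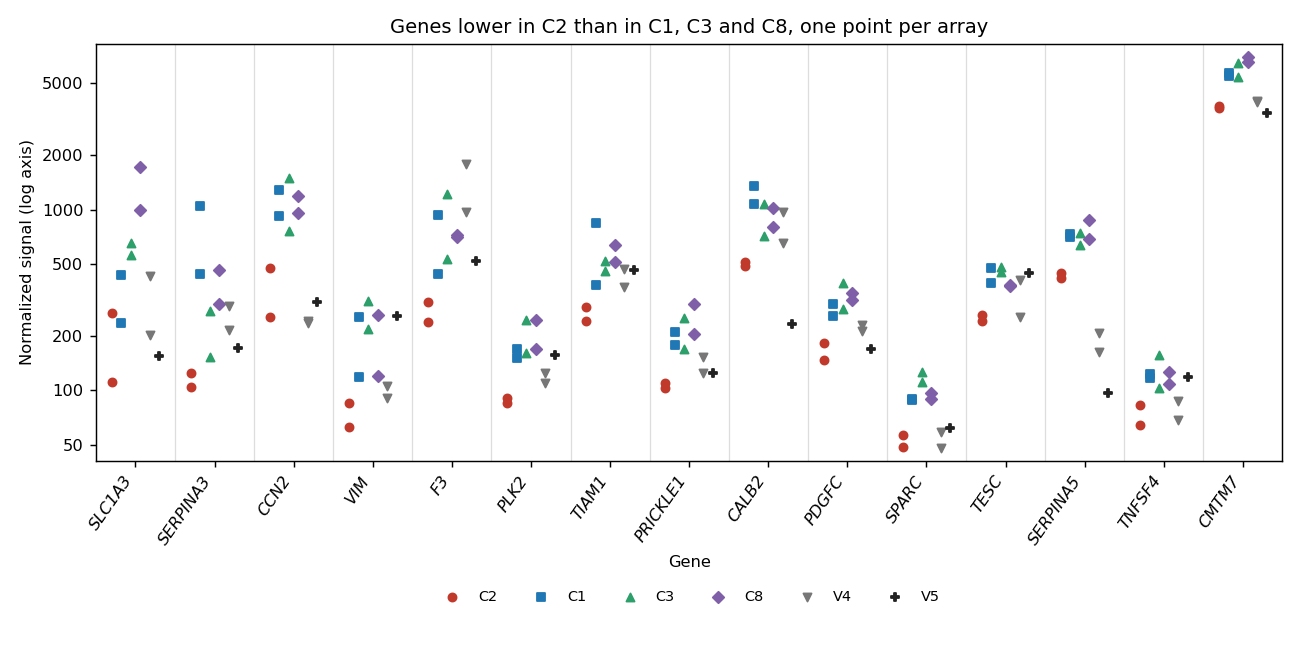
Normalized signals (log axis) of the 15 genes lower in C2 with the largest gap to the nearest other clone, 1 point per array, with C2 at the left of each gene, then C1, C3, C8 and the vector clones V4 and V5. In SPARC the C2 arrays (48.9 and 56.8) lie at the level of the vector arrays (48.2 to 61.7), and in SERPINA5 between the vector arrays and those of the other clones.

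It also included transporters, signaling proteins and cytoskeletal regulators. SLC1A3, a glutamate transporter whose call was lost with clone means, had the largest fold, with 268 and 112 in C2, against 436 and 237 in C1, 562 and 656 in C3, and 1719.6 and 995 in C8, a difference of -1.87 (SE 0.25, adjusted p = 0.0259, limma). It was -0.89 against C1, -1.81 against C3 and -2.92 against C8, and the first harvest of C2 was above the second of C1. TIAM1, which activates the GTPase Rac, had 289.8 and 243 in C2, against 384 to 841 (median 517), a difference of -1.03 (SE 0.18, adjusted p = 0.0468). PRICKLE1, a planar cell polarity protein, had 104 and 109.8 in C2, against 170.2 to 301 (median 208), a difference of -1.01 (SE 0.14, adjusted p = 0.0180). PLK2, a polo-like kinase and p53 target, had 91.3 and 84.8 in C2, against 151 to 245 (median 169.8), a difference of -1.08 (SE 0.15, adjusted p = 0.0215). In these 3 genes no array of another clone reached the C2 level. The calcium-binding proteins CALB2, known as calretinin, and TESC were lower as well, CALB2 with 513 and 485 in C2, against 712 to 1349 (median 1048), and TESC with 261 and 244, against 378 to 478 (median 423). Their differences were -0.98 (adjusted p = 0.0235) and -0.75 (adjusted p = 0.0399). The brightest gene of the lower group was CMTM7, a membrane protein of the MARVEL family, with 3750.2 and 3633 in C2, against 5405 to 6973 (median 6084) in the other clones and 3412 to 3996 in the vector clones, a difference of -0.72 (SE 0.11, adjusted p = 0.0256).

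Over the 29 lower genes the differences ran from -0.53 to -1.87. In 25 of them every array of C1, C3 and C8 lay above both C2 arrays. The call itself favors such a lack of overlap, and its share over all genes was not counted. In 16 of the 29 lower genes the mean C2 signal was under 2 times the common median, where background takes a large part of the value. Further members of the group, those outside the lists named after their values were seen, were the glucose transporter SLC2A3 (-1.10), the syntrophin SNTB1 (-1.39), the repulsive guidance factor SEMA3A (-1.06), the cell cycle kinase CDK6 (-0.82), the cell adhesion molecule NECTIN3 (-0.77), the microtubule protein MAP1B (-0.94), the Notch pathway repressor HES6 (-0.66), PNMA2 (-0.53) and the probe ILMN_1766446 (-0.73), which has no symbol. A dimmer probe of MAP1B gave -0.47.

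The genes higher in C2 included a brush border peptidase and enzymes that act on fatty acyl-CoA. DPP4, a peptidase of the intestinal brush border, had 237 and 153 in C2, against 83.9 and 83.6 in C1, 78.0 and 78.4 in C3, and 66.1 and 82.8 in C8, a difference of 1.28 (SE 0.16, adjusted p = 0.0166, limma). All arrays of the other clones, and the vector arrays at 58.5 to 63.5, were below the common median, so C2 alone brought this gene into the test. LONRF2 (0.78), ITGA9 (0.68) and TBX3 (0.70) likewise entered the test through the mean of C2 alone, and a gene that passes in this way must be higher in C2. ACOT11, a thioesterase that releases fatty acids from coenzyme A, had 1289 and 1529 in C2, against 694 and 625 in C1, 566 and 618 in C3, and 602 and 382 in C8, a difference of 1.30 (SE 0.17, adjusted p = 0.0171). ACSL5, a long-chain acyl-CoA synthetase, had 1987 and 1417 in C2, against 1175 and 1208 in C1, 458 and 509 in C3, and 258 and 477 in C8, a difference of 1.52 (SE 0.22, adjusted p = 0.0320). The vector arrays of ACSL5 gave 5030.0 to 6700.3, so that all gelsolin-overexpressing clones lay below them, C2 the least. ANXA10, an annexin, had the largest rise at 1.71 (SE 0.25, adjusted p = 0.0403), with 2329.6 and 2427 in C2, against 733 and 636 in C1, 2006 and 801 in C3, and 608 and 324 in C8. Both ACSL5 and ANXA10 were named after their values were seen, and both lost their call with clone means. Dimmer probes gave 0.20 for ACOT11, and 0.16 and 0.42 for ACSL5.

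Regulators of signaling and transcription were also among the higher genes. PKIB, an inhibitor of protein kinase A, had 683 and 688 in C2, against 412 and 353 in C1, 286 and 244 in C3, and 237 and 209.9 in C8, a difference of 1.28 (SE 0.12, adjusted p = 0.00591, limma). The vector arrays gave 1162, 1031 and 1321, and C2 lay between them and the other clones, without overlap. A dimmer PKIB probe gave -0.08. ID2, which blocks basic helix-loop-helix transcription factors, had 2312 and 2931 in C2, against 972 to 1859 (median 1096) in the other clones, a difference of 1.14 (SE 0.16, adjusted p = 0.0213). PPFIBP2, a liprin, had 325 and 301 in C2, against 126 to 224 (median 140.1), a difference of 1.02 (SE 0.13, adjusted p = 0.0166). BEND6 had 171 and 164 in C2, against 92.5 to 115 (median 108), a difference of 0.66 (SE 0.12, adjusted p = 0.0468).

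Actin-binding and membrane proteins were a further part of the higher group. LIMA1, known as EPLIN, which bundles and stabilizes actin filaments, had 1141 and 999 in C2, against 419.5 to 677 (median 560.3) in the other clones, a difference of 0.95 (SE 0.15, adjusted p = 0.0259, limma). PALLD, palladin, an actin crosslinker of stress fibers, had 3088 and 2793 in C2, against 1305 to 2136 (median 1518), a difference of 0.91 (SE 0.11, adjusted p = 0.0103). Its vector arrays gave 2587, 2777 and 3442, a range that holds both C2 arrays. LIMA1 and PALLD were not on the list of actin filament regulators. Of its 28 measured genes 0 were called by limma and 2 had an unadjusted p under 0.05 (10.1% of all genes). The list median was 0.13, with 3 genes apart above (11.03% of all genes) and 2 below (5.15% of all genes). PROM2, prominin 2 of membrane protrusions, had 1256 and 791 in C2, against 714 and 539 in C1, and 385 to 427 in C3 and C8, a difference of 1.09 (SE 0.15, adjusted p = 0.0215). Here the vector arrays were lowest, at 253, 102 and 78.3, and C2 was the clone farthest from them. ABCC2, an efflux transporter of conjugates, had 891 and 941 in C2, against 384 to 599 (median 409.9), a difference of 1.06 (SE 0.16, adjusted p = 0.0259). The phosphate transporter SLC20A2 (0.84, adjusted p = 0.0391), the oncofetal glycoprotein TPBG (0.83, adjusted p = 0.0375), the raft protein MALL (0.76, adjusted p = 0.0434) and PAM, which amidates secreted peptides (0.74, adjusted p = 0.0364), were higher in both C2 arrays than in all arrays of the other clones. Over the 25 higher genes the differences ran from 0.65 to 1.71, and in 23 of them both C2 arrays lay above all 6 others. The call itself favors such a lack of overlap, and its share over all genes was not counted. The remaining higher genes were the protease KLK7 (0.74), the sulfotransferase HS3ST1 (0.82), the receptor EPHA1 (0.73), TBC1D19 (0.80) and IGF2BP3 (0.65). Of these EPHA1 was named through a list and the others after their values were seen.

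**Figure D3:**
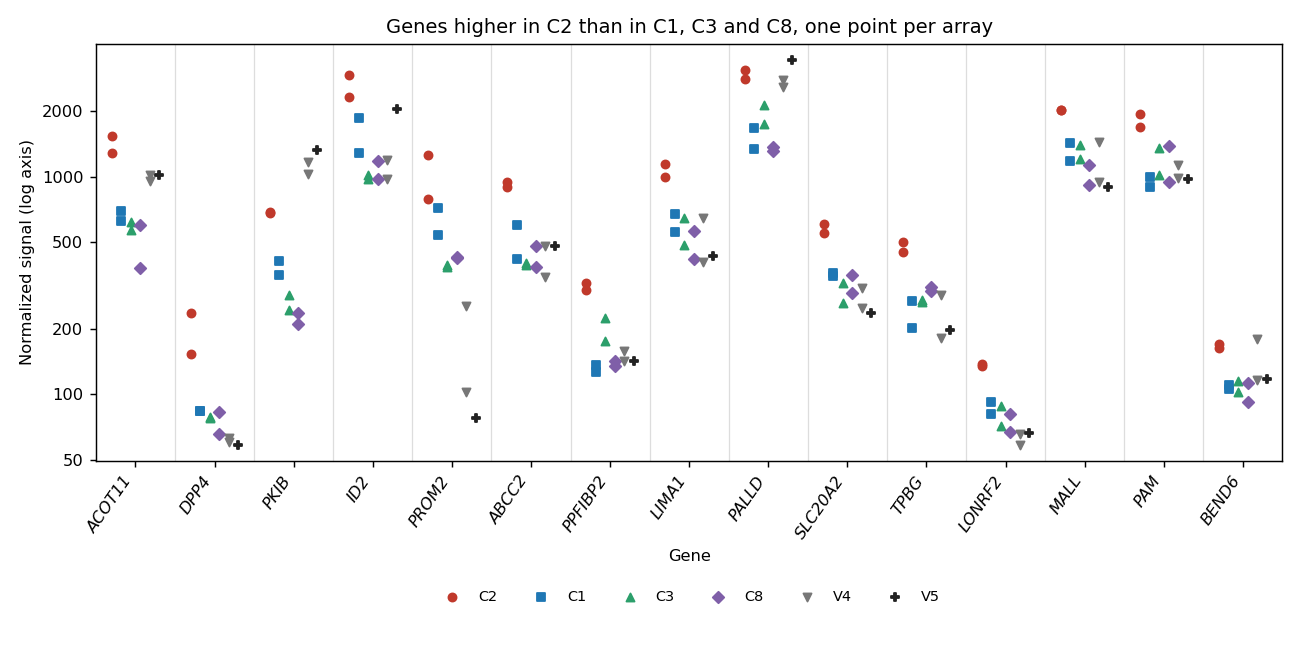
Normalized signals (log axis) of the 15 genes higher in C2 with the largest gap to the nearest other clone, 1 point per array, with C2 at the left of each gene, then C1, C3, C8 and the vector clones V4 and V5. In PKIB the C2 arrays (683 and 688) lie between the other clones and the vector clones (1031 to 1321), and in PROM2 C2 lies farthest from the vector clones.

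DUSP6, NR2F1 and ENO2 were each below the other clones on both beadchips, but none passed the test. DUSP6 had 279 and 471 in C2, against 480.4 and 771 in C1, 631 and 601 in C3, and 625 and 567 in C8, a difference of -0.74 (SE 0.19, adjusted p = 0.188, limma). NR2F1 had 705 and 603 in C2, against 1334 and 843 in C1, 1078 and 1116 in C3, and 1191 and 869.6 in C8, a difference of -0.70 (SE 0.15, adjusted p = 0.0918). In both genes the C2 arrays did not overlap with the other clones, which in turn lay below the vector arrays, at 1024, 1882 and 1141 for DUSP6 and 1625, 1852 and 2472 for NR2F1. ENO2 had 376 and 375 in C2, against 526 and 609 in C1, 551 and 521 in C3, and 455 and 694 in C8, a difference of -0.56 (SE 0.15, adjusted p = 0.207). Its vector arrays gave 162, 194 and 173, so C2 was the gelsolin-overexpressing clone nearest to them.

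Gelsolin itself, GSN, had 187 and 208 in C2, against 217 and 235 in C1, 205 and 215 in C3, and 259.8 and 271 in C8, and 141, 141 and 140.2 in the vector clones. C2 was the lowest gelsolin-overexpressing clone on both beadchips, with a difference of -0.24 (SE 0.12) that did not pass the test (adjusted p = 0.522, limma). A dimmer GSN probe had 75.6 and 74.8 in C2, against 72.1 to 87.4 in the other clones, and 76.0 to 80.8 in the vector clones. The position of the probes relative to the plasmid insert was not examined.

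**Figure D4:**
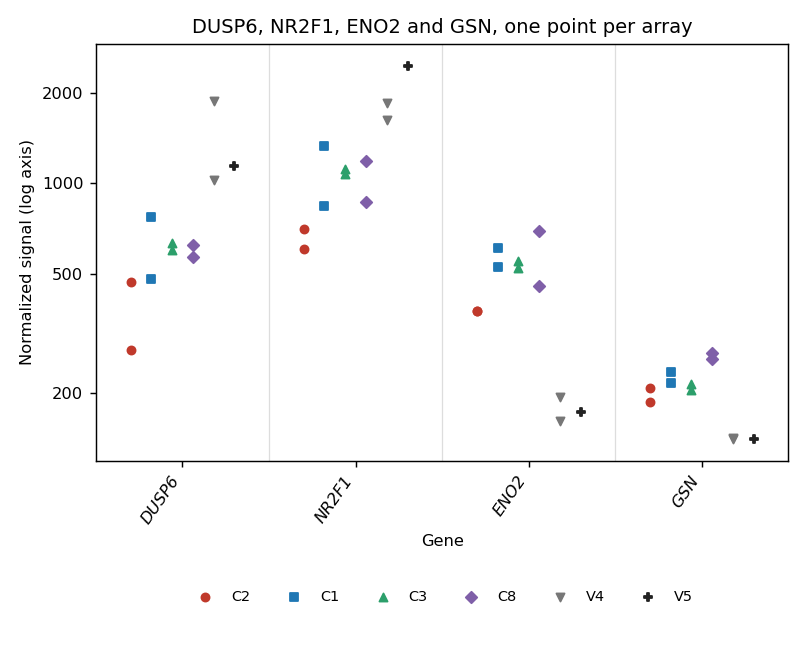
Normalized signals (log axis) of DUSP6, NR2F1, ENO2 and GSN, 1 point per array, with C2 at the left of each gene, then C1, C3, C8 and the vector clones V4 and V5. C2 is lowest among the gelsolin-overexpressing clones on each beadchip in all 4 genes, on the side away from the vector clones in DUSP6 and NR2F1 and on their side in ENO2 and GSN.

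Against the vector clones, in a fit of all 11 arrays, C2 had 962 genes higher (9.28%) and 465 lower (4.49%), and the mean of C1, C3 and C8 had 1415 higher (13.7%) and 989 lower (9.54%). The mean of the other clones rests on 6 arrays and that of C2 on 2, and both comparisons share the vector arrays. Side by side, CCN2 was 0.49 above the vector clones in C2 (adjusted p = 0.152, limma) and 2.12 above them in the other clones (adjusted p = 3.47e-05). CMTM7 gave 0.01 (adjusted p = 0.981) in C2 and 0.72 (adjusted p = 0.000490) in the other clones. In both genes every array of the other clones lay above the vector arrays and the C2 arrays overlapped with them in range, though an adjusted p above the threshold does not show equality. PKIB gave -0.85 (adjusted p = 0.00293) in C2 and -2.13 (adjusted p = 1.09e-06) in the other clones. VIM, SEMA3A and CXCL8 were lower in C2 than in the vector clones, with -0.95 (adjusted p = 0.0115), -3.64 (adjusted p = 7.57e-07) and -1.99 (adjusted p = 0.00142), where the other clones gave 0.50 (adjusted p = 0.0450), -2.58 (adjusted p = 1.09e-06) and -0.57 (adjusted p = 0.0677). For VIM the V4 arrays (90.6 and 106) lay near the second harvest of C2 (85.7). The single V5 array was far higher, at 259. DPP4, ABCC2 and LIMA1 were higher in C2 than in the vector clones, by 1.64 (adjusted p = 0.000471), 1.02 (adjusted p = 0.00680) and 1.19 (adjusted p = 0.00868), where the other clones gave 0.36, -0.04 and 0.24, none past the threshold. DPP4 entered the test through C2 alone, which fixed its direction against C1, C3 and C8. The vector arrays were not part of the filter, but the same C2 arrays enter the comparison with them. The filter therefore favors a rise of DPP4 over the vector clones as well.

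Gene lists written from textbook knowledge, with earlier results of these data known, were used to describe pathways in C2. Of 41 lists, 11 held a called member, 13 different genes in all among 508 measured (2.56%, beside 0.521% of all genes tested), 4 of them higher and 9 lower. Of these 13, DPP4 entered the test through C2 alone. Because earlier results were known, the shares do not test whether listed genes were called more often. The median difference over all genes was 0.05, and 5th and 95th percentiles were -0.27 and 0.32. In the 30 lists without a called member the medians ran from -0.30 to 0.32.

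Epithelial adhesion genes gave the highest median of the lists without a call, 0.32, and 0.27 under quantile normalization, where the median of all genes was 0.01. All 16 measured members had positive differences, 6 were apart above (11.03% of all genes) and 0 below, and 0 passed the limma test, with 9 at an unadjusted p under 0.05 (10.1% of all genes). DSC2, a desmosomal cadherin, had 1193 and 979 in C2, against 646 to 898 (median 718), a difference of 0.53 (adjusted p = 0.113, limma). The transcription factor GRHL2 (0.52, adjusted p = 0.143), plakoglobin JUP (0.50, adjusted p = 0.230) and EPCAM (0.36, adjusted p = 0.357) came next. The summed signal of this list was 17255.5 and 16942.8 in C2, and 13964.5 and 17154.2 in C1. C1 was thus above C2 on beadchip 2. C3 gave 11214.2 and 11568.4, C8 14326.8 and 12572.7, and the vector arrays 13026.3 to 16602.5. Of 20 intestinal differentiation genes with a probe 7 passed the filter, DPP4 among them through C2 alone, and the other 6 had a median of 0.23 with none called. KLF5 (0.74, adjusted p = 0.0853) and KRT20 (0.52, adjusted p = 0.308) were apart above, and CDX2, a homeobox factor of the intestine, was apart below (-0.29, adjusted p = 0.525).

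Mesenchymal state genes had a median of -0.31 over 7 measured members, 2 of them positive and 5 negative, with VIM and SPARC called lower and none higher. Per array, relative to the other clones, the list median was -0.42 and -0.20 in C2 and -0.23 in the first harvest of C8. The vector arrays gave -0.76 and -0.88 (V4) and -0.30 (V5). Against the vector clones the list median was 0.21 in C2 and 0.53 in the other clones. THBS1, thrombospondin 1, had 89.2 and 78.1 in C2, against 109 to 259 (median 144), but its difference of -0.94 did not pass (adjusted p = 0.216, limma). Of 13 measured YAP and SRF targets 1, CCN2, was called, with a list median of -0.21. Apart below were 5 (5.15% of all genes) and above 0 (11.03% of all genes). The muscle ankyrin repeat protein ANKRD1 had 55.6 and 53.5 in C2, near the floor of the arrays, against 60.1 to 276 (median 115), a difference of -1.13 (adjusted p = 0.381), and others apart below were ACTA2 (-0.52, adjusted p = 0.194) and CRIM1 (-0.40, adjusted p = 0.359). CCN1, a close relative of CCN2 named after its values were seen, had 632 and 1195 in C2, against 600.0 to 2079 (median 1000.4), and was not apart. Matrix proteins had a median of -0.18 over 15 members, 4 apart below (5.15% of all genes) and 0 above (11.03% of all genes). VCAN, versican (-0.94, adjusted p = 0.241, limma) and COL12A1 (-0.67, adjusted p = 0.156) were at the head. Of the matrix proteins 0 were called by limma and 6 had an unadjusted p under 0.05 (10.1% of all genes).

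**Figure D5:**
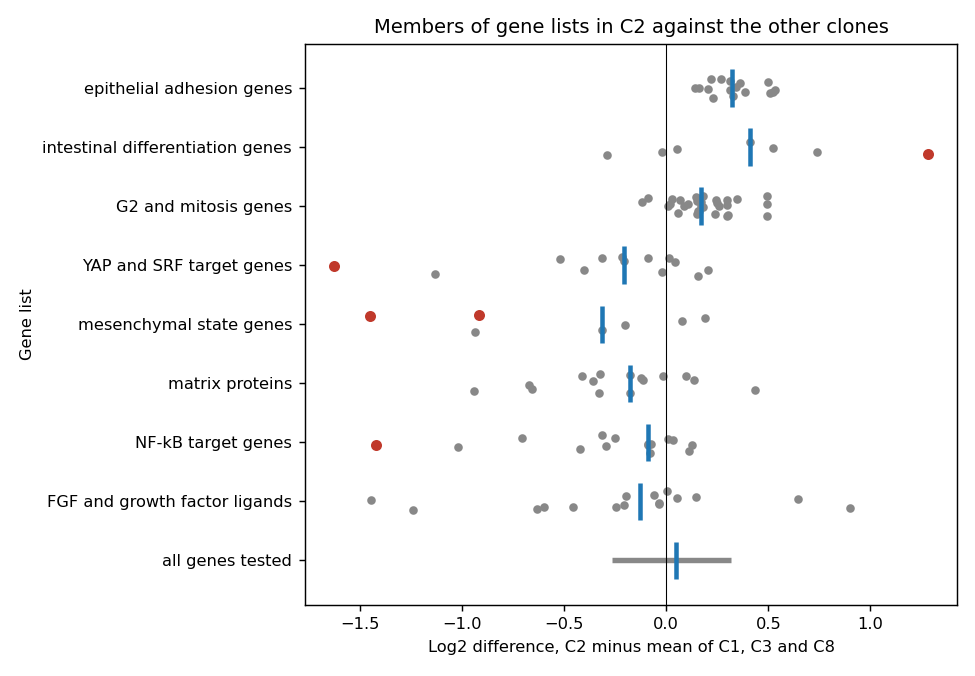
Log2 differences between C2 and the mean of C1, C3 and C8 for the measured members of 8 gene lists (points, red where called), with the median of each list as a blue line. The lowest row gives all genes tested, with the 5th to 95th percentile (-0.27 to 0.32) as a gray bar and the median of 0.05.

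Signaling lists held single called members. Of 21 ERK feedback and early response genes SPRY1, a Sprouty inhibitor of receptor tyrosine kinase signaling, was lower, with 75.9 and 74.5 in C2, against 96.4 to 147 (median 106), a difference of -0.60 (SE 0.10, adjusted p = 0.0375, limma), and another SPRY1 probe gave -0.74. SPRY2 had 154 and 175 in C2, against 204 to 404 (median 257), a difference of -0.72 that did not pass (adjusted p = 0.112), and the median of this list was 0.00. Of 15 NF-kB targets CXCL8 was lower and 5 were apart below (5.15% of all genes), with a list median of -0.09. Among these 5 were CXCL1 (-0.71, adjusted p = 0.458, limma), CXCL2 (-0.42, adjusted p = 0.356) and TNFAIP3 (-0.32, adjusted p = 0.454). PLK2 was the called member of 19 p53 targets (median -0.12), in which CDKN1A, the p21 inhibitor of cyclin-dependent kinases, gave -0.39 (adjusted p = 0.307) and the oxidoreductase TP53I3, the member apart above, 0.60 (adjusted p = 0.207). Among 9 BMP and ID genes (median -0.04) ID2 was higher, BMP4 gave -0.66 (adjusted p = 0.108) and ID1 0.26 (adjusted p = 0.413). Of the 15 NRF2 genes (median 0.08) ABCC2 was higher, and the heme oxygenase HMOX1 gave 0.75 (adjusted p = 0.0795). Of 20 semaphorins, ephrins and receptors (median -0.02) EPHA1 was higher and SEMA3A lower, and of 18 hypoxia response genes (median -0.04) SLC2A3 was lower.

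Among lists without a called gene, 6 stem cell and Wnt targets had a median of -0.13, with the transcription factor SOX9 at 645 and 568 in C2, against 869 to 1556 (median 1146), a difference of -0.91 (adjusted p = 0.0853, limma), and AXIN2, a feedback inhibitor of Wnt signaling, at -0.99 (adjusted p = 0.0955). Of 16 FGF and growth factor genes 6 were apart below (5.15% of all genes) and 2 above (11.03% of all genes). The neurotrophin BDNF gave 0.64 (adjusted p = 0.102, limma), FGFBP1 0.90 (adjusted p = 0.122) and IGFBP2 -0.60 (adjusted p = 0.122). FGF9 and IGFBP3, picked after their values were seen, had the most negative differences of this list, FGF9 with 70.7 and 70.5 in C2, against 121 to 406 (median 175), a difference of -1.45 (adjusted p = 0.248), and IGFBP3 with 75.0 and 73.9, against 112 to 343 (median 155), a difference of -1.24 (adjusted p = 0.246). Of 5 measured genes of the urokinase system list 0 were called by limma and 2 had an unadjusted p under 0.05 (10.1% of all genes). The inhibitor SERPINE2 gave -0.49 (adjusted p = 0.182, limma) and tissue plasminogen activator PLAT -0.61 (adjusted p = 0.245). SERPINA5, the urokinase inhibitor called lower above, was not on this list. The nuclear receptor PPARG gave 0.73 (adjusted p = 0.102) among 16 nuclear receptors, and KRT13, with 562 and 437 in C2 and 80.2 to 296 (median 167) in the other clones, 1.61 (adjusted p = 0.432) among 10 keratins. G2 and mitosis genes had a median of 0.17, with 28 of 30 positive and 3 apart above (11.03% of all genes). Of them 0 were called by limma and 6 had an unadjusted p under 0.05 (10.1% of all genes). The 30 DNA replication genes had a median of 0.14, with 0 apart. The summed signal of the G2 and mitosis genes was 35736 and 35234 in C2, against 29513 and 31408 in C1, 38219 and 35869.5 in C3, and 21866 and 28600.3 in C8, so that C3 was above C2 on both beadchips and C8 the lowest.

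Most markers of leukocytes, fibroblasts and endothelial cells were below the common median. Of 7 leukocyte markers with a probe 3 were above the common median, of 8 fibroblast markers 1, and of 6 endothelial markers 1. The summed leukocyte signal was 657 and 624 in C2, against 688 to 1498 in the other clones and 638 to 692 in the vector clones. This sum followed CD68, a lysosomal glycoprotein used as a macrophage marker, with 226 and 211 in C2, against 686 and 1034 in C1, 303 and 605 in C3, and 379.6 and 732 in C8, a difference of -1.40 (SE 0.20, adjusted p = 0.0257, limma). Colon epithelial markers lay above the common median in 5 of 7 genes and summed to 26201 and 29482 in C2, against 22175 to 29377 in the other clones. Among neuroendocrine markers SCG2, a secretogranin, had 2836 and 1999.7 in C2, against 514 to 1488 (median 1047), a difference of 1.32 (adjusted p = 0.290), and ENO2 the values above.

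By chromosome, genes above the other clones were spread over all autosomes, with 5.38% to 15.5% of the tested genes of each. On the X chromosome 1.96% of 306 genes were apart above (11.03% of all genes) and 5.23% below (5.15% of all genes). Their medians were -0.07 on beadchip 1 and 0.07 on beadchip 2. Each clone against the mean of the other 3, the median over the X-linked genes was 0.00 in C2, -0.10 in C1, 0.28 in C3 and -0.19 in C8, and the part of these levels in the counts was not tested. Of the 306 X-linked genes 0 were called by limma and 22 had an unadjusted p under 0.05, beside 10.1% of all genes.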

How the data were processed

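Total RNA of the gelsolin-overexpressing clones C2, C1, C3 and C8 and the vector clones V4 and V5 was hybridized to Illumina HumanRef-8 beadchips. For 20596 probes the authors deposited the average bead intensity as summarized in BeadStudio, without normalization between arrays. They also deposited a table of ratios from GeneSpring, in which each array was divided by its median and each probe by a baseline taken from the control samples, and differences between arrays in the 2 tables deviated by at most 3.96e-07 on the log2 scale. The lowest intensity of an array was 34.2 to 41.9, so background remained in the values. No detection p-values were used, and the number of arrays limits the precision.

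Intensities were divided by the array median, multiplied by the common median of 88.35 and log2 transformed. Probes were kept where the mean of at least 1 of the 4 gelsolin-overexpressing clones was above the common median (10839 probes), and the brightest probe represented each gene, which left 10363 genes, 895 of them probes without a symbol. Of these, 87 were kept through C2 alone. Symbols came from the platform annotation, in which 18389 probes had 1 symbol, 0 several and 2207 none, and 18369 were updated by gene ID.

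A limma model (version 3.58.1, R 4.3.3) of clone and beadchip was fitted to the 8 arrays of the gelsolin-overexpressing clones with trended, robust variance moderation (3 residual degrees of freedom), and its two-sided p-values were adjusted by Benjamini-Hochberg across the 10363 genes, with a threshold of 0.05. Comparisons with the vector clones used a fit of all 11 arrays. The beadchip served as the block. In the gelsolin-overexpressing clones it matched the replicate number of the labels, which was taken as the harvest. The array of V5, labeled as a first replicate, lay on the beadchip of the second harvests. The deviations of arrays with the same number correlated at -0.282 to 0.583 over 6 pairs of clones.

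The members, the gene lists and the marker genes were chosen with earlier results of these data known. The genes named were DUSP6, NR2F1, ENO2 and GSN, and 15 higher and 15 lower genes. The latter had the largest gap to the nearest other clone among those apart and called. In lists described with members, up to 4 with the smallest adjusted p were also named. Genes named beyond this rule were picked after their values were seen. Not all 41 lists are described one by one. The others enter only the counts and the range of medians over lists. Alternatives were quantile normalization, normexp background correction, an offset of 50, other filters, no block, plain moderation, all arrays in the fit, single arrays or clones left out, clone means as samples, every probe as a feature, and the deposited ratios.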

Additional observations from a re-analysis of the deposited data

Results flagged for a closer look

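Among the 6 arrays of C1, C3 and C8, a single array stood apart from the other 5 in 3 of the 34 named genes examined, by a gap over range above the critical value of 0.625, which chance exceeds in about 1 of 20 groups. ACOT11 had 381.5 in the second harvest of C8 (gap over range 0.659), DPP4 66.1 in the first harvest of C8 (0.694) and TPBG 201.6 in the first harvest of C1 (0.630). All 3 genes were higher in C2 and these arrays were the lowest of their group.

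The median difference of 26 interferon-stimulated genes between C2 and the other clones was 0.32 on beadchip 1 and -0.30 on beadchip 2, with 0 members called by limma, 0 at an unadjusted p under 0.05 and 0 apart on both beadchips. The summed signal of these genes was 31417 and 32175 in C2, against 28823 and 67415 in C1, 23574 and 23785 in C3, and 31861 and 42145 in C8, so that the second harvests of C1 and C8 were high while C2 varied little. The median of 6 cancer-testis and germline genes was -0.28 on beadchip 1 and 0.24 on beadchip 2, with summed signals of 3007 and 4140 in C2, against 2908 to 3984 in the other clones. The difference between beadchips was not tested in either list.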

How the results depend on the processing

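All 54 called genes kept their direction in each of the 23 alternatives in which they were tested, but their number moved. Without the filter 91 genes were called (34 higher, 57 lower), and without the beadchip block 17 (12 higher, 5 lower). Leaving out C1, C3 or C8 gave 12, 31 and 121 calls, clone means as samples 23 (15 of them among the 54), and leaving out 1 array 1 to 284, with the lowest count without the second harvest of C1 and the highest without the first of C8. Clone means also called genes that the main fit did not. Among them were THBS1 (adjusted p = 0.0453, limma), IGFBP3 (adjusted p = 0.00254), FGF9 (adjusted p = 0.0045) and KRT13 (adjusted p = 0.000883). The ratio table gave 36, of which 33 were among the 54. Its differences between arrays were the same, and only the mean level of each gene, used by the variance trend, was not. The scaling alternatives gave 40 to 48, with 42.9% to 52.1% of them higher. Against each clone at once, no filter gave 3 genes (CCN2, VIM and ILMN_1784678), leaving out C8 13, and leaving out 1 array 0 to 6. Apart on both beadchips were 2814 genes without the filter. The call of C2 against the mean of the other clones for DUSP6 and for ENO2 was made in 1 of 23 alternatives, for NR2F1 in 4 and for GSN in 0. Signal over background limits dim genes most, and the causes of the shifts in the other alternatives were not tested.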
